A study of Mus musculus with 36 samples.

Results

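Interferon response genes are genes whose transcription is switched on by type I or type II interferon, and 39 of them were followed through treatment of mice with a lymphotoxin decoy. The members were chosen by gene symbol: every probe set listed under a single symbol was taken where that symbol was a member. This gave 37 of the 18193 genes on the arrays, read by 57 of 45137 probe sets, of which 51 belong to array A and 6 to array B. Bright enough to be tested were 44 of them, from 36 genes, for array A and 5, from 4 genes, for array B. Ifit2 was measured but lay below the brightness filter, and Isg15 was represented only by a probe set listed under a second symbol as well, so its level is not reported. Ifi44 is not analysed here.

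The RNA was total RNA of mesenteric lymph nodes, the nodes that drain the gut. The groups are PBS (phosphate-buffered saline, day 0) and treatment with soluble lymphotoxin-beta receptor (sLTbetaR-Ig in the series title) lasting 1, 2, 3, 27 or 35 days, each with 3 samples on each of 2 Affymetrix array types that carry different probe sets, here array A and array B. The soluble receptor binds the ligands of the lymphotoxin-beta receptor and so keeps them from stromal cells and macrophages of the node. The labels give no strain, age, dose or genotype, no saline group at a later day and no group given a control protein, so length of treatment and day of harvest cannot be told apart. They do not say whether the 3 arrays of a group came from separate mice, so p-values measure only the spread between these arrays. For 1 array B sample of day 1 the source field does not describe the sample, and title and description were used instead. Cd79a of B cells, Cd3e of T cells and Glycam1 of high endothelial venules had mean intensities of 3408 ± 60.1, 1804 ± 74.5 and 5807 ± 727 (SD, n = 3) on the PBS arrays, as the labelled tissue would have.

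Interferons act by binding receptors that activate Janus kinases, which phosphorylate STAT proteins. STAT proteins in a complex with IRF9 bind a DNA element called the interferon-stimulated response element (ISRE), while STAT pairs bind the gamma-activated sequence (GAS). The induced genes sense viral RNA and DNA, block virus growth, attack vacuoles that hold microbes, attract T cells, load peptides onto class I molecules, and shut the pathway off again. In the lymph node, lymphotoxin from B cells is known to maintain the subcapsular macrophages that make type I interferon when virus arrives.

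The members whose level differed between groups in the tests below are Socs1, Gbp2, Psmb8, Psmb9 and Mx1, and promoter stretches of the first 4 are shown for the motifs through which such genes are known to respond. The motifs were GAAANNGAAA for the ISRE and TTCNNNGAA for the GAS, searched on both strands in the window from 250 bases before to 50 bases after each RefSeq start (GRCm38.p6); neither pattern contains the other. The ISRE letters were present in 16 of the 37 windows of the 31 members that have any, against 3.44% of all 32851 windows. The GAS letters were present in 9 of these 37 windows, against 8.3% of all. Ifit3, an antiviral gene with a pair of ISRE matches, is added for comparison. Capitals mark the matched letters, the Gbp2 and Ifit3 matches being on the opposite strand. The Socs1 stretch lies at chr16:10785584-10785639 on the minus strand. The Gbp2 stretch lies at chr3:142620584-142620633, that of Psmb8 at chr17:34198078-34198126 and that of Ifit3 at chr19:34583353-34583436, all on the plus strand.
Socs1: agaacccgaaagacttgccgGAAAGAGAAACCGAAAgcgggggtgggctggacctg
Gbp2: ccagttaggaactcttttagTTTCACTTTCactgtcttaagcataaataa
Psmb8: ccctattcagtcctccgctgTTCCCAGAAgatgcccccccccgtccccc
Ifit3: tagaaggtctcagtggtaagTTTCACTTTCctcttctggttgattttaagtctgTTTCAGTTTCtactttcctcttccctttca
The stretches differ in kind: Socs1, Gbp2 and Ifit3 hold ISRE letters and Psmb8 holds GAS letters.

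Psmb9 and Tap1 are neighbours that are transcribed away from each other, with 225 bases between their starts. That whole shared stretch, chr17:34187331-34187555 (GRCm38.p6, plus strand, reading from the start of Psmb9 to the start of Tap1), is given because Psmb9 was called in the tests below and Tap1 was not.
Psmb9-Tap1: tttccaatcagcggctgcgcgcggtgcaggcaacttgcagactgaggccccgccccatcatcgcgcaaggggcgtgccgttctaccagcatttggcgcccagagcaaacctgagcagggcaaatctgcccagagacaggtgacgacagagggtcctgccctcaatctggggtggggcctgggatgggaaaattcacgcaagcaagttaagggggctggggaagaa
It held 0 matches to either pattern, which says only that these letters are not in it.

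The median level of the interferon response genes stayed within a narrow range over the course of treatment, while single members with quite different roles changed late. The median log2 change of the 44 probe sets on array A lay between 0.03 and 0.14 for the 5 days against PBS, and the spread of the per-array median between replicates was 0.098 (SD, log2). The medians were 0.09 at day 1, 0.05 at day 2, 0.14 at day 3, 0.03 at day 27 and 0.11 at day 35, where the medians over all 12231 tested probe sets were 0.022, 0.026, 0.019, 0.046 and 0.032. The SD is that of single arrays and not the error of a difference between groups, and the medians were not tested. Changes above 0 made up 86.36%, 75%, 86.36%, 54.55% and 72.73% of the 44 at these days. Of all tested probe sets, 60.64%, 61.43%, 56.95%, 63.28% and 57.99% had changes above 0.

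In the first 3 days no member passed the test. Limma called 0 of 44 member probe sets on array A at day 1, day 2 and day 3 (adjusted p, Benjamini-Hochberg, at 0.05), against 0.0164%, 0.114% and 0.556% of all tested probe sets. The counts at an unadjusted p under 0.05 were 7, 4 and 9 of 44, against 3.36%, 5.52% and 10.1%, and all of these lay above PBS. On array B limma called 0 of 5, against 0.00799%, 0.024% and 0.0799%. The unadjusted counts there were 0, 1 and 0 of 5, against 7.19%, 7.05% and 8.28%. With the 3 early days pooled, limma called 0 of 44 on array A and 0 of 5 on array B, against 0.155% and 0.032%. The unadjusted counts of that pooled comparison were 9 of 44 and 0 of 5, against 6.5% and 10.7%.

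After weeks, a few members differed from PBS. At day 27 limma called 2 of 44 member probe sets on array A, against 3.18% of all, with 1 higher (Gbp2, 0.58% of all were higher) and 1 lower (Psmb9, 2.6% of all were lower). At day 35 it called 4 of 44, against 7.36%, with Gbp2 and Mx1 higher (1.77% of all were higher) and Psmb9 and Socs1 lower (5.58% of all were lower). The members' shares lay near those of the array as a whole. At an unadjusted p under 0.05, 4 member probe sets passed at day 27 and 10 at day 35, against 18.4% and 22.8%. On array B limma called 0 of 5 on both days, against 0.328% and 3.59%, with unadjusted counts of 3 and 2, against 11.3% and 19.9%.

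The late groups (days 27 and 35) were also compared with the early groups (days 1, 2 and 3), a comparison that uses no PBS array. Limma called 3 of 44 member probe sets on array A, all lower late: Psmb8, Psmb9 and Socs1. Of all probe sets 15.4% were called, 4.98% higher and 10.4% lower. The median log2 change was -0.04 for members and 0.017 for all probe sets. At an unadjusted p under 0.05, 11 of 44 passed, against 29.4%. On array B 0 of 5 were called, against 1.66%, and 3 passed unadjusted, against 13.9%. Between the late days no member passed the test: limma called 0 of 44 and 0 of 5 for day 35 against day 27, against 0% on both arrays. The unadjusted counts were 2 of 44 and 0 of 5, against 6.66% and 2.83%. In the F test of any difference among the 6 groups, Gbp2, Psmb9 and Socs1 were called on array A and no member on array B, against 7.71% and 0.951%.

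**Figure D1:**
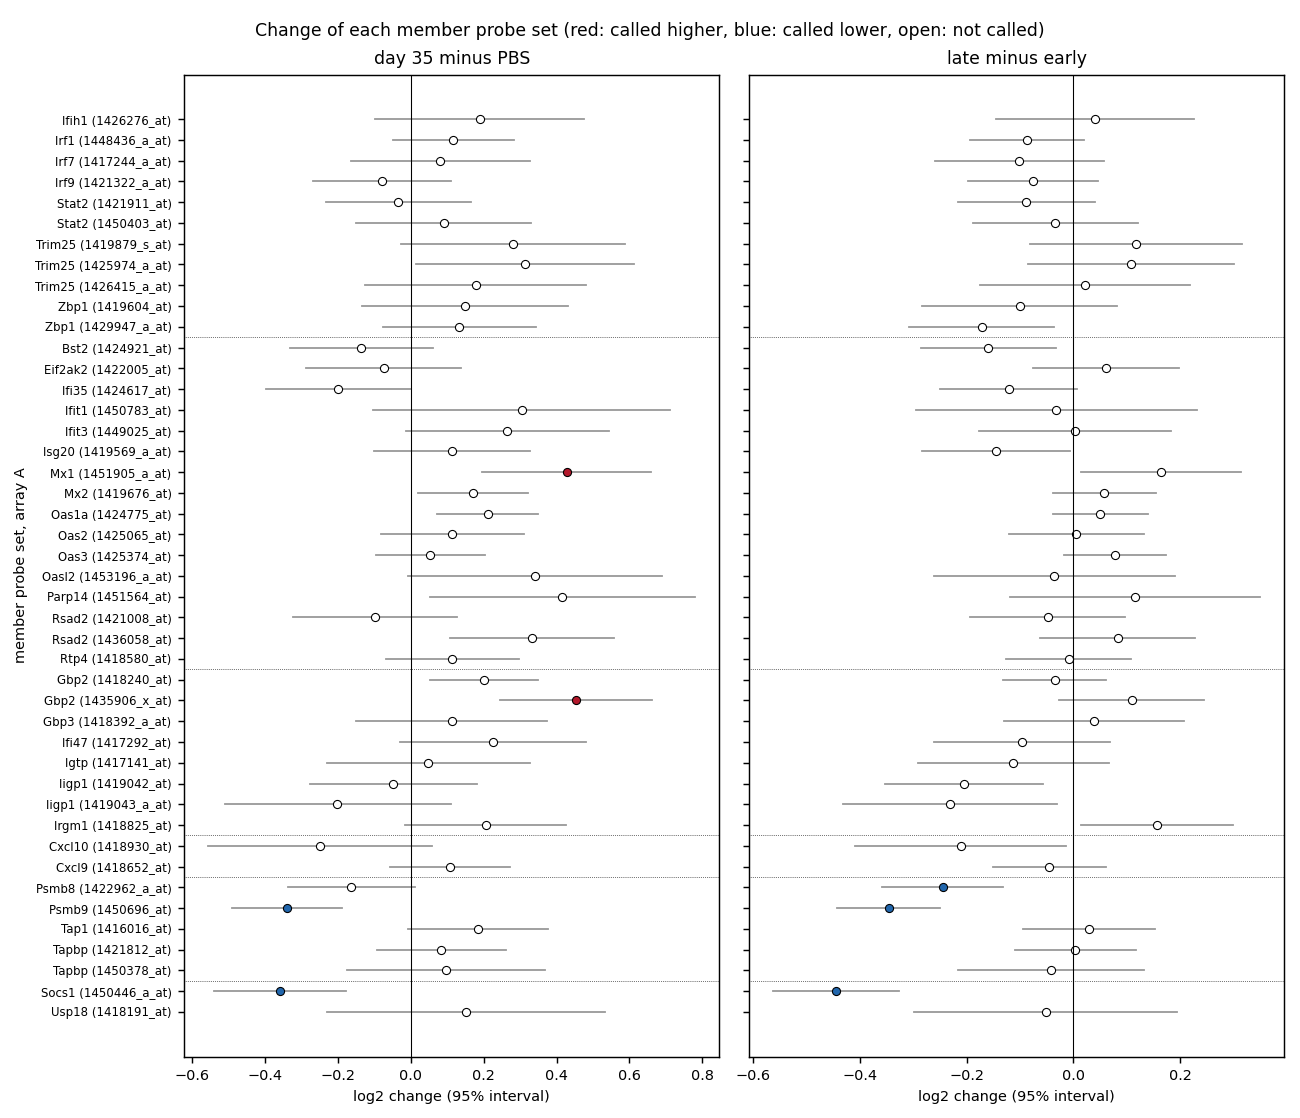
Log2 change (points) with its 95% interval (lines) of the 44 member probe sets on array A, by role from top to bottom, at day 35 against PBS (left) and in the late against the early groups (right). Filled points passed the limma test: 4 on the left (Mx1 and Gbp2 to the right of 0, Psmb9 and Socs1 to the left) and 3 on the right, all below 0.

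Late against early, the largest fall of a member was that of Socs1, a negative regulator that binds Janus kinases and shuts off interferon signalling. Its intensity was 465, 460.3 and 447 on the PBS arrays. It was 573, 547 and 538 at day 1, 524.5, 496 and 602 at day 2, and 450.4, 471 and 475 at day 3. At day 27 it was 384, 449 and 386, and at day 35 389, 371 and 314.5. The day 1 and day 2 arrays all lay above the PBS arrays and the day 35 arrays all lay below them. All 6 late arrays were below all 9 early arrays. On the log2 scale its late against early change was -0.44 (SE 0.056, adjusted p = 4.72e-05). The call remained when any single array was left out and in each other setting tried. Against PBS, Socs1 was not called at day 27, where the arrays overlapped (-0.17, adjusted p = 0.292 in limma). It fell at day 35 by 0.36 (SE 0.087, adjusted p = 0.0164). That call was lost without PBS replicate 1, PBS replicate 2 or day 35 replicate 3, with an adjusted p of up to 0.0681, and in a fit of only the PBS and day 35 arrays (0.0533). The levels above PBS at day 1 (0.27, SE 0.087, unadjusted p = 0.00534) and day 2 (0.24) did not pass adjustment (adjusted p = 0.998 and 0.752).

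Usp18, the other negative regulator, removes ISG15 from proteins and blocks the type I receptor. Its intensity was 367.5, 413 and 430.3 on the PBS arrays and 468, 545 and 351 at day 35. At day 3 it was 409, 448 and 569, and at day 27 409.8, 284 and 436. The groups overlapped at each of these days. Its late against early change was -0.05 (SE 0.12, 95% interval -0.30 to 0.20), and it was not called in any comparison.

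Among the antigen processing genes, Psmb8 and Psmb9, interferon-induced subunits of the immunoproteasome, were lower late than early, and only Psmb9 was called against PBS. Tap1 and Tapbp were not called in any comparison. Tap1 is part of the pump that carries peptides into the endoplasmic reticulum, and Tapbp bridges that pump to class I molecules. Of 5 tested probe sets of 4 genes, 2 were lower late than early and 3 did not pass, where 10.4% of all probe sets were lower.

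Psmb9 had intensities of 1405, 1358 and 1506 on the PBS arrays. They were 1562, 1524 and 1433 at day 1, 1494, 1488 and 1514 at day 2, and 1365, 1483 and 1320 at day 3. They were 1176, 1212 and 1151 at day 27 and 1240, 1087 and 1050 at day 35. Every late array was below every PBS array and every early array. The late against early change was -0.35 (SE 0.046, adjusted p = 7.77e-05). It held when any single array was left out. Against PBS, Psmb9 fell at day 27 by 0.27 (SE 0.072, adjusted p = 0.0461) and at day 35 by 0.34 (SE 0.072, adjusted p = 0.00743). The day 27 call was lost when PBS replicate 1, 2 or 3 or day 27 replicate 1 or 3 was left out, with an adjusted p of up to 0.206, and in a fit of only the PBS and day 27 arrays (0.184), while the day 35 call held at 0.0485 or less.

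Psmb8 had intensities of 2143, 2169 and 2113 on the PBS arrays, 2419, 2422 and 2115 at day 1, and 2448, 2314 and 2416 at day 2. They were 2256, 2214 and 2279 at day 3, 2054, 1924 and 2022 at day 27, and 2146, 2016 and 1619 at day 35. The late and early arrays overlapped only through day 35 replicate 1 and day 1 replicate 3. Late against early, Psmb8 changed by -0.25 on the log2 scale (SE 0.054, adjusted p = 0.00428), to a lower level. It was not called against PBS on any day, with a change of -0.16 (SE 0.083, adjusted p = 0.256) at day 35. Its probe set on array B stayed below the filter.

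Tap1 had intensities of 1202, 1299 and 1506 on the PBS arrays, 1463, 1225 and 1492 at day 27, and 1534, 1509 and 1491 at day 35. The day 35 arrays lay within or just above the PBS range. Its late against early change was 0.03 (SE 0.059, 95% interval -0.09 to 0.15) and its change at day 35 was 0.18 (SE 0.092, adjusted p = 0.242). The other 3 Tap1 probe sets were below the filter.

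Since Psmb9 and Tap1 start 225 bases apart, the difference between their log2 intensities was followed on each array, a comparison chosen after the values were seen. It was 0.22, 0.064 and -0.0005 on the PBS arrays. On the 9 early arrays it was 0.044 ± 0.11 (SD) and on the 6 late arrays -0.33 ± 0.17. The late mean minus the early mean was -0.376, given with no test because the pair was chosen for this difference. The ranges overlapped through day 3 replicate 3 at -0.26 and day 27 replicate 2 at -0.016. The mean of small respiratory chain subunits, described below, also stood apart from its group on these arrays, at -0.42 and -0.13. The part of that variation in the difference was not tested.

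**Figure D2:**
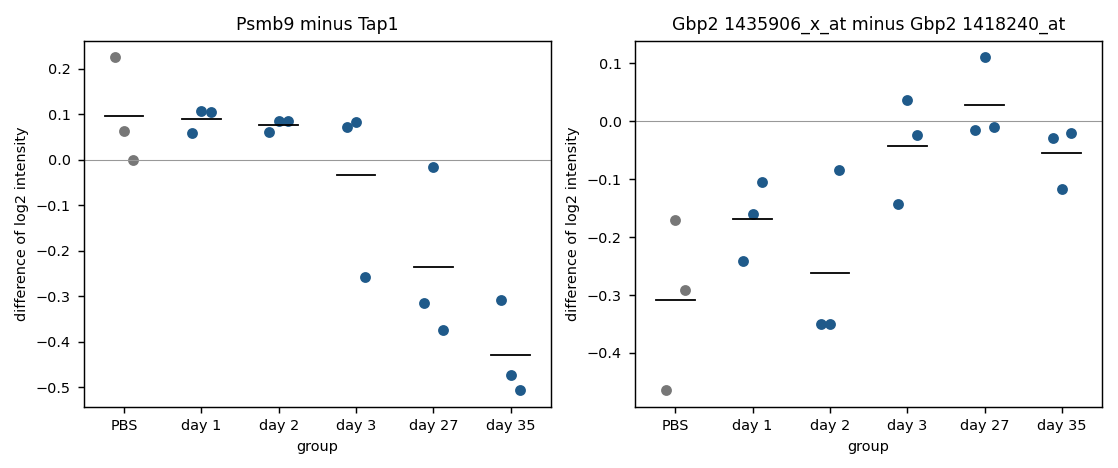
Difference of log2 intensity between Psmb9 and Tap1 (left) and between both Gbp2 probe sets (right) on each of the 18 arrays of type A (points), with the group mean (bar). On the left 5 of the 6 late arrays lie below -0.3, and on the right the late arrays lie near 0 where the PBS arrays lie between -0.46 and -0.17.

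The interferon-inducible GTPases, proteins that assemble on vacuoles holding microbes, gave 1 of 8 tested probe sets called at day 27 and 1 of 8 at day 35, in both cases Gbp2, a guanylate-binding protein. Of all probe sets 3.18% and 7.36% were called on these days. Its probe set 1435906_x_at had intensities of 496, 589.7 and 508 on the PBS arrays. They were 602, 595 and 676 at day 1, 566, 601 and 743 at day 2, and 635, 748.5 and 778 at day 3. They were 682, 699 and 693 at day 27 and 761, 725 and 692 at day 35. Every array of days 1, 3, 27 and 35 lay above every PBS array. Gbp2 by this probe set rose at day 27 by 0.38 (SE 0.10, adjusted p = 0.0398) and at day 35 by 0.45 (SE 0.10, adjusted p = 0.00955). The day 35 call held when any single array was left out, with an adjusted p of up to 0.0496. That at day 27 was lost when any of PBS replicates 1 and 3 and the 3 day 27 arrays was left out, with an adjusted p of up to 0.153, with no filter (0.0863) and in a fit of only the groups compared (0.0726). The change at day 3 was 0.44 (SE 0.10, adjusted p = 0.0573), short of the threshold.

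The other Gbp2 probe set, 1418240_at, was not called on any day. It had intensities of 684, 664 and 621 on the PBS arrays, 689, 648 and 698 at day 27, and 776, 786 and 702 at day 35. The day 27 arrays overlapped the PBS arrays and the day 35 arrays did not. Its changes were 0.05 (SE 0.071, adjusted p = 0.746) at day 27 and 0.20 (SE 0.071, adjusted p = 0.0947) at day 35, not called. The suffix of 1435906_x_at is the maker's mark for probe sets with probes that may also match other transcripts. The log2 difference between the probe sets averaged -0.31 on the 3 PBS arrays, -0.16 on the 9 early arrays and -0.014 on the 6 late arrays, a comparison chosen after the values were seen and given with no test.

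Irgm1, an immunity-related GTPase, had the next largest F statistic of this role. Its intensity was 631, 669 and 716 on the PBS arrays, 652, 739 and 601 at day 1, and 755, 824 and 744 at day 35. The day 35 arrays lay above the PBS arrays, with a change of 0.21 (SE 0.11, adjusted p = 0.256). The remaining GTPases Gbp3, Igtp, Ifi47 and Iigp1 were not called in any comparison. Both Iigp1 probe sets had negative log2 changes late against early, -0.21 (adjusted p = 0.0566) and -0.23 (adjusted p = 0.112), which missed the threshold.

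Among the antiviral effectors, 16 probe sets of 15 genes were tested on array A and 1 was called, Mx1 at day 35, where 7.36% of all were called. Mx1 is a dynamin-like protein that traps viral nucleoprotein complexes. Its intensity was 320.2, 378 and 364 on the PBS arrays, 387, 409 and 353 at day 1, and 349, 345 and 401 at day 2. It was 393.5, 446 and 492 at day 3, 428, 356 and 458 at day 27, and 491, 524 and 417 at day 35. All day 3 and day 35 arrays were above all PBS arrays, while days 1, 2 and 27 overlapped them. Mx1 rose at day 35 by 0.43 (SE 0.11, adjusted p = 0.0243). The call was lost without PBS replicate 1 or 3 or day 35 replicate 1 or 2, with an adjusted p of up to 0.132, and with no filter on dim probe sets (0.0704). At day 3 its change was 0.32 (SE 0.11, adjusted p = 0.293).

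The remaining antiviral effectors were not called. Ifit3, which binds foreign RNA together with its relatives, had intensities of 567, 463 and 545 on the PBS arrays, 639, 687.5 and 660.5 at day 1, and 652, 626 and 607 at day 35. The arrays of days 1 and 35 lay above those of PBS, with changes of 0.34 (SE 0.13, adjusted p = 0.998) and 0.26 (SE 0.13, adjusted p = 0.246). Ifit1 varied most from array to array, from 248.5 to 414 within PBS and from 266 to 521 within day 35. Oas1a (0.21, adjusted p = 0.0606) and Rsad2 by 1436058_at (0.33, adjusted p = 0.067) came closest to the threshold at day 35. The first makes the 2',5'-oligoadenylate that activates RNase L, and the second is viperin, which makes a chain-terminating nucleotide.

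Parp14, an ADP-ribosyltransferase, was read by a probe set on each array, and their values differed in sign. On array A its intensity was 769, 701 and 734 on the PBS arrays and 1004, 1062 and 882 at day 35, with no overlap and a change of 0.42 (SE 0.17, adjusted p = 0.157). On array B it was 196, 251 and 240.1 on the PBS arrays and 198, 235.5 and 177 at day 35, with overlap and a change of -0.17 (SE 0.11, adjusted p = 0.388). The late against early change was 0.12 on array A (adjusted p = 0.54) and -0.27 on array B (adjusted p = 0.0621). Ifi35 gave lower values on both arrays at day 35, by log2 changes of -0.20 (adjusted p = 0.22) on array A and -0.34 and -0.39 (adjusted p = 0.105 and 0.102) for its array B probe sets. None of these passed the test.

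Of the chemokines, Cxcl9 and Cxcl10 both bind CXCR3 and draw in activated T cells. Cxcl9 had intensities of 500.2, 520.5 and 535 on the PBS arrays, 571.5, 567 and 618 at day 3, and 594, 543 and 539 at day 35. The day 3 and day 35 arrays all lay above the PBS arrays, with changes of 0.17 (SE 0.079, adjusted p = 0.461) and 0.11 (adjusted p = 0.447). On array B Cxcl9 had 196, 202 and 179 on the PBS arrays and 204, 249 and 235 at day 2, the single member there with an unadjusted p under 0.05 in the first 3 days (0.25, SE 0.10, adjusted p = 0.686). Cxcl10 had 487, 492.5 and 594.5 on the PBS arrays and 472, 414 and 436 at day 35. Its day 35 arrays were all below the PBS arrays, with a change of -0.25 (SE 0.15, adjusted p = 0.331). Neither chemokine was called on any day.

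The sensors and transcription factors gave 0 called of 11 tested probe sets of 7 genes in all 8 comparisons in limma, with 0 to 2 at an unadjusted p under 0.05 in each. Of all probe sets 0% to 15.4% were called in these comparisons. Irf7, the factor that amplifies type I interferon, had intensities of 731, 711.5 and 847 on the PBS arrays, 818, 902 and 798 at day 1, and 870.0, 879 and 682 at day 35. The groups overlapped. Its change at day 35 was 0.08 (SE 0.12, 95% interval -0.16 to 0.33). Irf1, which drives class I and immunoproteasome genes, had 1925, 1955 and 1837 on the PBS arrays, 2065, 2136 and 2255 at day 2, and 2186, 1968 and 2049 at day 35. The arrays of both days lay above those of PBS, by 0.18 (SE 0.079, adjusted p = 0.868) and 0.12 (adjusted p = 0.402).

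Stat2 and Zbp1 have a pair of tested probe sets each. Stat2, the partner of IRF9 in the ISRE-binding complex, had intensities of 482, 465 and 425 by 1421911_at and of 328.5, 331 and 367.5 by 1450403_at on the PBS arrays. At day 35 they were 487, 475 and 383, and 355, 398 and 340.4. The groups overlapped for both, with changes of -0.03 (SE 0.095) and 0.09 (SE 0.11). Zbp1, a sensor of Z-form nucleic acid, had intensities of 559.8, 500.2 and 506 by 1429947_a_at on the PBS arrays, 594.5, 694 and 579 at day 1, and 641, 630 and 626 at day 3. Both days lay above PBS without overlap, with changes of 0.25 (adjusted p = 0.998) and 0.28 (adjusted p = 0.33). Its late against early change was -0.17 (adjusted p = 0.0816). Trim25, which helps switch on RNA sensing, had its largest change at day 35 by 1425974_a_at, 0.31 (SE 0.14, adjusted p = 0.202).

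**Figure D3:**
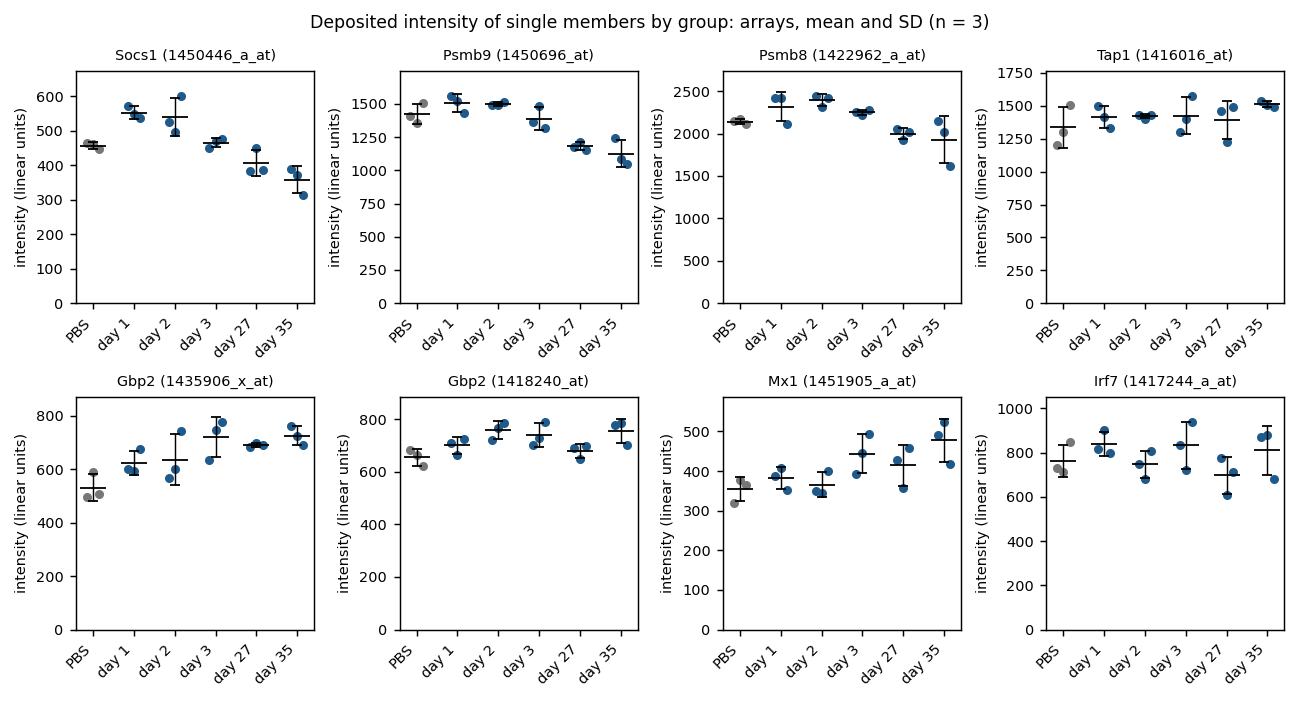
Deposited intensity of 7 members by 8 probe sets in the 6 groups, each point an array of type A, with the mean and SD (n = 3) and axes starting at 0. Socs1, Psmb9 and Psmb8 are lowest at days 27 and 35, Gbp2 by 1435906_x_at and Mx1 are highest at day 35, and Tap1 and Irf7 overlap between groups.

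The members moved together between arrays of the same group more than other genes did, a description with no test. After subtracting group means, the median correlation over 937 pairs of member probe sets of different genes on the 18 arrays was 0.355, with 85.27% of pairs above 0. Over all pairs of tested probe sets it was 0.058, with 55.27% above 0. Igtp (r = 0.934 with the mean of the other members), Usp18 (0.898), Zbp1 by 1419604_at (0.871) and Ifi47 (0.868) followed the list most closely, and 29 of 44 probe sets had r over 0.5. Of the called members, Mx1 (0.855) and Psmb8 (0.754) also had r over 0.5. Socs1 (0.418), Gbp2 by 1435906_x_at (0.32) and Psmb9 (0.172) followed the list less closely. Mx2 (-0.382) and Oas3 (-0.046) ran below 0. These pairs share arrays, RNA and scaling.

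The list's level also varied between arrays of the same group. The median deviation of the 44 probe sets from the PBS mean was 0.20, 0.20 and -0.04 on the day 35 arrays, where 38, 36 and 19 of 44 probe sets lay above the PBS mean. On the day 27 arrays it was 0.06, -0.13 and 0.10, with 30, 14 and 31 probe sets above. On the day 3 arrays it was 0.07, 0.07 and 0.26, with 32, 35 and 38 above. Day 3 replicate 3 was therefore high within its group, and day 27 replicate 2 and day 35 replicate 3 were low. These arrays also had the lowest array weights of the 18, 0.269, 0.232 and 0.287. Without them, 15 of 44 member probe sets were called at day 35, 13 higher and 2 lower, against 15% of all probe sets. Those gained included Ifit1 (0.62, adjusted p = 0.0097), Parp14 (0.49, adjusted p = 0.00386), Rsad2 by 1436058_at (0.39, adjusted p = 0.0066) and all 3 tested probe sets of Trim25. With day 35 replicate 3 alone left out, 5 were called, 4 higher and 1 lower, where 763 of all 12231 probe sets were called. Weighting the arrays instead gave 21 of 44 called on array A at day 35, 19 of them higher, against 24.9%. In these settings the shares of all probe sets count both directions. Their split into higher and lower is not given, so the direction of the member calls has no share beside it. Day 35 replicate 3, left out or given less weight here, also had the lowest list median of its group. The count of members called at day 35 thus differed with the weight given to these arrays.

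**Figure D4:**
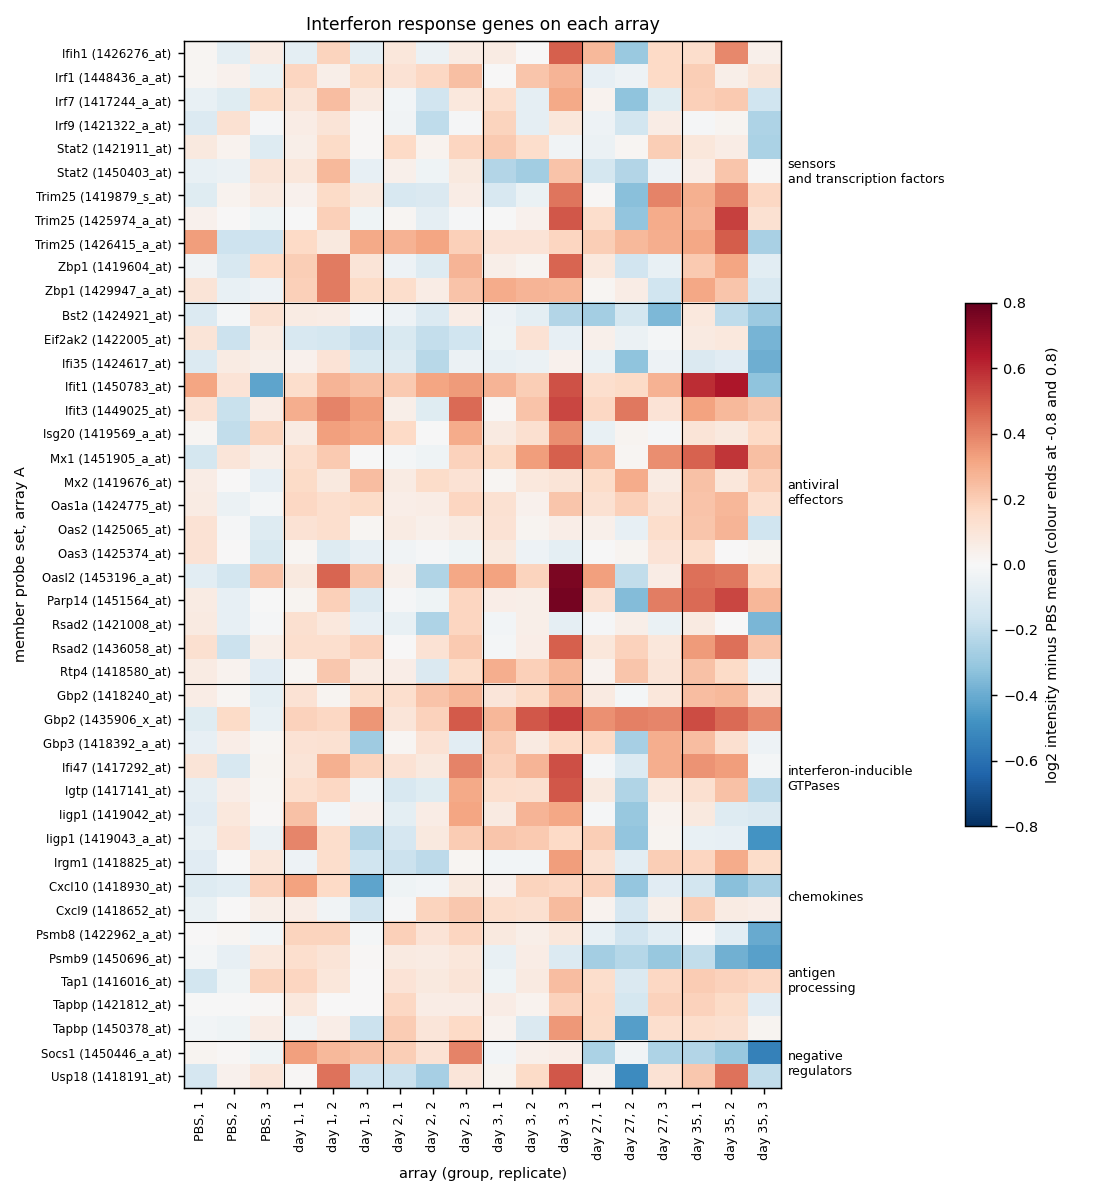
Log2 intensity minus the mean of the PBS arrays (colour, ending at -0.8 and 0.8) of the 44 tested member probe sets on array A (lines, by role) on each of the 18 arrays (columns, by group and replicate). Day 3 replicate 3 and day 35 replicates 1 and 2 are mostly red, day 27 replicate 2 and day 35 replicate 3 mostly pale or blue, and Psmb8, Psmb9 and Socs1 are blue on most late arrays.

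The same 3 arrays bore on the late against early comparison and on day 27. Without them 11 of 44 were called late against early, 7 higher and 4 lower, against 26.3% of all in either direction. At day 27, 6 were called, 3 higher and 3 lower, against 11.7% in either direction. Mx1 (0.29, adjusted p = 0.0032), Irgm1 (0.25, adjusted p = 0.00608) and Parp14 (0.34, adjusted p = 0.00139) were then among those higher late. Leaving out 1 array at a time gave 3 to 6 calls for this comparison and 0 to 1 at day 27. Array A as a whole then gave 1292 to 2419 calls late against early and 137 to 714 at day 27.

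Transcripts of small respiratory chain subunits moved with the late arrays. Their mean over 60 probe sets of 32 genes deviated from PBS by -0.31, -0.13 and -0.44 on the day 27 arrays, by -0.38, -0.59 and -0.44 on the day 35 arrays, and by -0.42 on day 3 replicate 3. It lay between -0.04 and 0.06 on the other 8 early arrays. Of the 32 genes, 32 were lower and 0 higher late than early. With that mean as a covariate, Psmb8 and Psmb9 kept lower values late but lost their calls (adjusted p = 0.0829 and 0.0723), and Socs1 kept its call (adjusted p = 0.0376). All day 27 and day 35 calls against PBS were lost with the covariate, Gbp2 at 0.235 and Mx1 at 0.699 at day 35, where the calls on array A as a whole went from 900 to 1. Member calls that appeared with the covariate were all lower: Stat2 by 1450403_at at day 27 (-0.42, adjusted p = 0.0378), Ifi35 on array B at days 27 and 35, and, late against early, Trim25, Tapbp, Stat2 and Parp14 on array A and Parp14 and Ifi35 on array B. For the array B results the covariate was the mean of the same gene list over the tested probe sets of array B. Late against early, Trim25 by 1425974_a_at and Parp14 on array A were called lower with the covariate (-0.37 and -0.49) and higher without the 3 arrays of low weight (0.30 and 0.34). The part of this variation in the results was not tested.

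**Figure D5:**
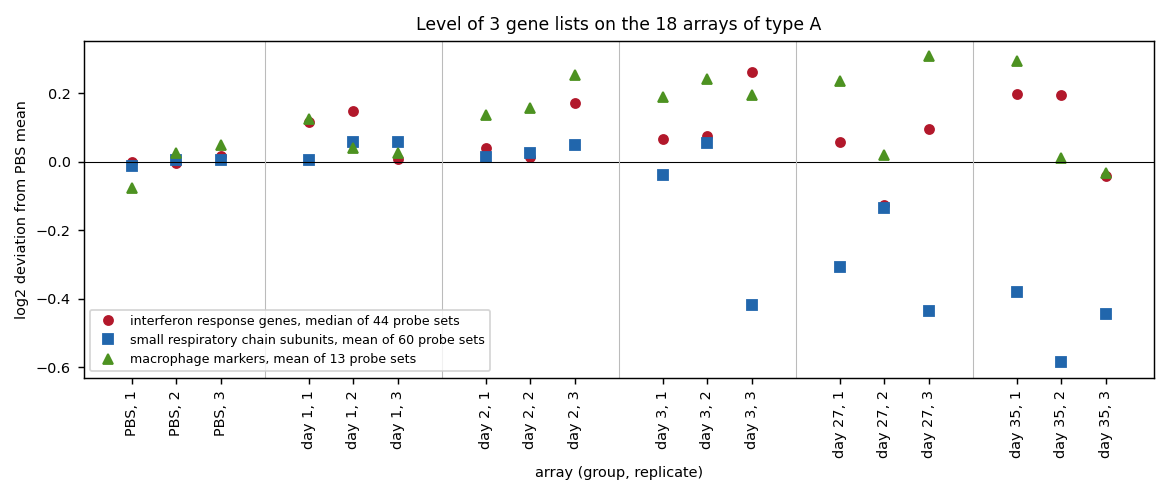
Deviation from the PBS mean (log2) of the median of the 44 interferon response probe sets, of the mean of 60 probe sets of small respiratory chain subunits and of the mean of 13 probe sets of macrophage markers on each of the 18 arrays of type A. Day 3 replicate 3 and all late arrays but day 27 replicate 2 lie below -0.3 for the respiratory subunits, while the interferon response genes lie between -0.13 and 0.26 throughout.

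Bulk RNA cannot tell fewer cells of a type from less RNA per cell, so markers of cells that make or answer interferon are given beside the members. Macrophage markers (11 of 12 on array A) summed to 23070 to 24130 on the PBS arrays, 26190 to 26900 at day 3, 23740 to 28970 at day 27 and 23310 to 28620 at day 35. Plasmacytoid dendritic cell markers (8 of 9) summed to 5938 to 6119 on the PBS arrays and 5901 to 6395 at day 35. Natural killer cell markers (8 of 9) summed to 2572 to 2712 and 2479 to 2730. Markers of lymph node stroma and venules (7 of 9) summed to 13560 to 15140 on the PBS arrays, 6264 to 6957 at day 3 and 9793 to 11810 at day 35. Those of B cells summed to 15130 to 15760 on the PBS arrays and 14880 to 15840 at day 35. At days 3 and 27 they lay below the PBS range, at 13430 to 14650 and 13770 to 15030. At each of days 3, 27 and 35, 1 of 10 tested B cell probe sets was called lower, against 0.556%, 3.18% and 7.36% of all called. T cell markers summed to 9614 to 9970 on the PBS arrays and 9094 to 9611 at day 35. Of 10 tested T cell probe sets, however, 1 was called higher and 0 lower at day 35, where 7.36% of all were called. Cd3e had a mean of 1992 ± 73.3 (SD, n = 3) at day 35, above the 1804 ± 74.5 on the PBS arrays. Neutrophil markers summed to 3132 to 3280 on the PBS arrays and 3108 to 3635 at day 35. Those of fat cells summed to 23190 to 25600 on the PBS arrays, 19550 to 22780 at day 3, 20340 to 24370 at day 27 and 16180 to 20250 at day 35. Red cell markers summed to 1707 to 2067 on the PBS arrays and 1573 to 1714 at day 35. No marker probe set was listed at 0. The part of these cells in the members' changes was not tested.

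The rest of the pathway was read from lists of 99 other genes, of which 88 probe sets of 55 genes were tested on array A. Of these, 4 were higher and 5 lower at day 35, 0 higher and 6 lower at day 27, and 4 higher and 12 lower late than early. Of all probe sets 7.36%, 3.18% and 15.4% were called in these comparisons. Array A called 0 of 88 at days 1 and 2 in limma and 1 lower at day 3, against 0.0164%, 0.114% and 0.556% of all. At an unadjusted p under 0.05, 3 and 5 passed at days 1 and 2, against 3.36% and 5.52%. On array B, 31 probe sets of 23 genes gave 2 lower at day 35, where 3.59% of all were called. They gave 0 calls in the other comparisons, against 0% to 1.66% of all. In those, 0 to 6 passed at an unadjusted p under 0.05, against 2.83% to 13.9%. The median change of the array A lists at day 35 was 0.05.

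Upstream, the receptors and kinases changed in part. Ifngr2, a chain of the type II receptor, had intensities of 528, 513 and 527 on the PBS arrays, 421, 403 and 438 at day 3, and 434, 393 and 447 at day 27 by 1423557_at. These days did not overlap PBS, and it fell by 0.31 (SE 0.068, adjusted p = 0.0431) and 0.30 (adjusted p = 0.0202), while its other probe set was not called. By both its tested A probe sets Ifnar2, a chain of the type I receptor, was lower late than early, by -0.17 (adjusted p = 0.0469 and 0.0152). Jak2, a kinase of the type II receptor, rose at day 35 by 0.31 (adjusted p = 0.0136), and Ptpn2, a phosphatase that acts on Janus kinases, by 0.30 (adjusted p = 0.00594), each by 1 of 2 tested probe sets. Socs3, the relative of Socs1 that restrains gp130 signalling, gave opposite calls late against early by 2 of its 3 probe sets, 1416576_at (-0.24, adjusted p = 0.000631) and 1455899_x_at (0.22, adjusted p = 0.0394).

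Ifnar1 and Ifngr1 were not called in any comparison, with changes at day 35 of 0.22 (SE 0.11, adjusted p = 0.22) on array A and -0.09 (SE 0.09, adjusted p = 0.569). Ifng lay below the filter, at 51.0 ± 4.3 (SD, n = 3) on the PBS arrays and 54.3 ± 4.4 (n = 3) at day 35. Irf8, a factor of dendritic and B cells, had intensities of 1680, 1710 and 1614 on the PBS arrays and 1224, 1078 and 1342 at day 27 by 1448452_at. These did not overlap, and it fell by 0.46 (SE 0.085, adjusted p = 0.00536) at day 27 and by 0.32 (SE 0.085, adjusted p = 0.0285) at day 35. By its other probe set, 1416714_at, it was not called, with changes of -0.19 and 0.10. Among nucleic acid sensors, Sting1 on array B (-0.64, adjusted p = 0.0376) but not on array A was lower and Unc93b1 (0.29, adjusted p = 0.0374), which carries Toll-like receptors to endosomes, was higher at day 35. Tlr9 was lower late than early (-0.17, adjusted p = 0.025).

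Downstream, the Ifitm genes, whose proteins block virus fusion, were lower late than early, as were 10.4% of all array A probe sets. This held for all 3 tested probe sets, 1 for each of Ifitm1, Ifitm2 and Ifitm3. Ifitm3 had intensities of 2259, 2093 and 2165 on the PBS arrays, 1705, 1702 and 1517 at day 27, and 1778, 1617 and 1583 at day 35. The late arrays lay below PBS, and its late against early change was -0.42 (SE 0.056, adjusted p = 7.73e-05). Ifitm1 (-0.46, adjusted p = 0.000645), Ifitm2 (-0.19, adjusted p = 0.0351) and Ifi27l2a (-0.44, adjusted p = 0.00168) were lower late than early too. Against PBS, Ifitm1 was called lower at day 35 (adjusted p = 0.0333) but not at day 27 (0.272). Ifitm2 was called on neither day, with changes of -0.03 (adjusted p = 0.874) at day 27 and -0.17 (0.28) at day 35. Psme1, an activator subunit of the proteasome, was lower late than early by -0.33 (adjusted p = 0.000115), Ccl5, a T cell chemokine, by -0.32 (adjusted p = 0.00441) and Lgals3bp by -0.23 (adjusted p = 0.00743). H2-K1, a class I heavy chain, was higher by 1 of 4 probe sets, by 0.11 (adjusted p = 0.0141), and Uba7, the activating enzyme for ISG15, by 1 of 3, by 0.14 (adjusted p = 0.0425). Ly6e was lower at day 35 by 1 of 2 probe sets on array B (-0.66, adjusted p = 0.00457).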

How the data were processed

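Each deposited value is a linear, non-negative intensity of a probe set in a sample. How the authors computed and scaled it (software, background correction): not given in the sources used here. Medians of the samples were 272.8 to 299.5 (array A) and 149.8 to 165.2 (array B), so values were not rescaled. Genes were named from the platform annotation, only where a probe set had 1 symbol (20380 of 22626 probe sets on array A, 14661 of 22511 on array B), and 64 control probe sets per array were left out. A floor at each table's 20th percentile (122.6 and 76.57) preceded log2. Testing needed a value over the table's median (286.7 and 157.9) on at least 3 of 18 arrays, which 12231 and 12516 probe sets had.

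Each table was fitted apart with limma 3.58.1 in R 4.3.3 (lmFit, eBayes with a trend), all 6 groups in 1 fit. P-values are two-sided, adjusted by Benjamini-Hochberg within table and contrast, and called at 0.05. The number of arrays limits the precision. The script was tested on simulated data. The members, lists and tests were chosen with earlier results of these data known. Members described by array are those called in any comparison, the 2 genes of each role with the largest F statistic, and Irf7, Stat2, Isg15 (no probe set of its own, so not described), Ifit3, Gbp2, Irf1, Cxcl9, Cxcl10, Psmb8 and Tap1; other members are named where they came close to the threshold or changed with the setting, chosen after their values were seen. Of the pathway lists, the text names genes called in any comparison and Ifnar1, Ifngr1, Ifng and Irf8. The labels do not say that replicate numbers pair the samples, and correlations of same-numbered samples did not all pass 0.1 on either array. Alternatives covered scaling, floor, filter, trend, array weights, blocking by replicate number, smaller fits of the compared groups, left-out arrays and a respiratory subunit covariate. That covariate was computed apart for each array type, from its own tested probe sets. Promoter windows came from RefSeq.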

Additional observations from a re-analysis of the deposited data

Results flagged for a closer look

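For 3 members the late and the early treatment groups differed in the limma test of that difference (adjusted p, Benjamini-Hochberg): Psmb8 by -0.25, Psmb9 by -0.35 and Socs1 by -0.44 on the log2 scale, each lower at days 27 and 35 than at days 1, 2 and 3. These were 3 of 44 member probe sets on array A, where 15.4% of all probe sets were called in this comparison and 10.4% were lower. For Socs1 and Psmb9 all 6 late arrays were below all 9 early arrays, and for Psmb8 the arrays overlapped.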

How the results depend on the processing

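The counts of called members moved with the weight given to single arrays. Member calls on both arrays together with array weights were 2, 3, 3, 8 and 23 at days 1, 2, 3, 27 and 35. There were 3 early against PBS and 15 late against early. Of all probe sets on array A, the weights called 77, 536, 377, 2485 and 3046 at these days. They called 272 early against PBS and 4114 late against early. On array B, where the weights did not converge, the 5 days gave 152, 2298, 45, 345 and 1432. The pooled comparisons there gave 287 and 505. Leaving out day 3 replicate 3, day 27 replicate 2 and day 35 replicate 3 gave 6 at day 27, 15 at day 35 and 11 late against early. With the replicate block, 1 was called at day 3, 1 at day 27, 6 at day 35 and 6 late against early. Those added at day 35 were both Ifi35 probe sets on array B (adjusted p = 0.0426 and 0.0388 in limma), and those added late were Parp14 and Ifi35 on array B. Replicate numbers had a median same-number correlation of 0.019 on array A (18 of 45 pairs over 0.1). On array B it was 0.37 (34 of 45), where other pairs had -0.098. The block raised the calls of all probe sets on array B at day 35 from 449 to 1327. On array A as a whole it called 65 at day 3, 409 at day 27, 922 at day 35 and 1922 late against early. Array B gave 68 at day 3, 220 at day 27 and 483 late against early. With no filter, 1 was called at day 27, and with only the groups compared, 0. Array A as a whole gave 390 and 113 calls in these settings, and array B 17 and 16. With the covariate, 2 were called at day 35, both Ifi35 on array B and lower, and 8 late against early. The covariate, there computed from array B itself, raised the calls on array B as a whole at day 35 from 449 to 1965. Late against early it gave 635 calls on array A and 400 on array B, where the main fit gave 1880 and 208. Leaving out 1 array gave 0 to 1 at day 3, 0 to 1 at day 27, 2 to 5 at day 35 and 3 to 6 late against early. Array A as a whole then gave 16 to 31, 137 to 714, 333 to 763 and 1292 to 2419 calls. Array B gave 2 to 5, 0 to 33, 125 to 239 and 102 to 276. Under quantile normalization the median change of members at day 27 was -0.007 in place of 0.03, and that list median is not called. The calls of the main comparisons kept their sign in every setting run, whereas Parp14 and Trim25, not called there, were called late against early in opposite directions with array weights (0.26 and 0.25) and with the covariate (-0.49 and -0.37). The causes of these shifts were not tested. With 3 arrays per group, smaller differences than those called may be missed.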
